A study of Mus musculus with 8 samples.

Results

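The complement genes described here are 9 genes chosen by name: the C1q chains C1qa, C1qb and C1qc, the components C3, C4b and Cfb, the regulator Serping1, and the receptors C3ar1 and C5ar1. Every probe set annotated with 1 of these symbols and no other was taken, which gave 12 of the 45101 probe sets on the array. They measured 7 of the 9 genes, and all 12 passed the filter on dim values, so that 7 of 13854 tested genes were members. For C3 no probe set was listed, and for C4b the listed probe set carried several symbols, so both are named only.

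The lungs came from male ICR mice aged 5 to 6 weeks, and RNA of right lung lobe 1 was measured on Affymetrix arrays with 1 sample each. Single-walled carbon nanotubes, SWCNT, were instilled once into the trachea at 0.5 mg, suspended in 50 µl of a 0.1% solution of the surfactant Pluronic F-68 (PF68), and control mice were given PF68 itself. Lungs were taken on day 1, an acute time, or day 7, a sub-chronic time. There were 4 groups of 2 arrays each: PF68 on day 1, SWCNT on day 1, PF68 on day 7 and SWCNT on day 7. The comparison of SWCNT with PF68 on a day asks what the nanotubes add to the vehicle, and no group that was not instilled was used. The labels call the arrays biological replicates without naming animals, so p-values measure the spread between these arrays, which may in part be technical.

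Complement is a cascade of plasma and locally made proteins that tags particles and cells for uptake and recruits leukocytes. C1q, with 1 chain from each of C1qa, C1qb and C1qc repeated in every molecule, recognises its targets and starts the classical pathway, and tissue macrophages are its main source. Cfb, complement factor B, supplies the protease of the alternative pathway, Serping1 is the C1 inhibitor that stops the first proteases of the classical and lectin pathways, and C3ar1 and C5ar1 are the receptors for the small fragments C3a and C5a on myeloid cells. Many components reach the lung from the liver through the blood, and only RNA made in the lung is measured here.

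The upstream sequences of 3 members are shown because C1qb and C1qc belong to 1 protein, and C3ar1 had the largest difference between SWCNT and PF68 on day 7. RefSeq promoter sequences (assembly GRCm38.p6) were matched by symbol for 5 of the 9 members. C1qb, C1qc and C1qa follow one another directly on chromosome 4. The 250 bases before each start in that table are given 5′ to 3′ on the minus strand, where all 3 genes lie, at chr4:136886201-136886450 for C1qb, chr4:136892915-136893164 for C1qc and chr6:122856158-122856407 for C3ar1. Capitals mark matches, on either strand, to the core of the PU.1 site (GAGGAA), the AP-1 site (TGANTCA), the TATA box (TATAAA) and the interferon-stimulated response element, searched as GAAA repeated after a gap of any 2 bases.
C1qb: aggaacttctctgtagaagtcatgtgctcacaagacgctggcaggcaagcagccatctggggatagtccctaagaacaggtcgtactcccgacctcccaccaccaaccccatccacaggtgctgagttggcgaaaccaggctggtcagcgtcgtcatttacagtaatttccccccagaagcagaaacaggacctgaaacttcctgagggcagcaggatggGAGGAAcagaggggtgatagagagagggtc
C1qc: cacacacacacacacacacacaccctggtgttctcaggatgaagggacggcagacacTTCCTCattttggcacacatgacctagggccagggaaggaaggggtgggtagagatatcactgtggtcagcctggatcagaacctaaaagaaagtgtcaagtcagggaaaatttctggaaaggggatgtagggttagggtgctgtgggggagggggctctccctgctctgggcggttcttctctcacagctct
C3ar1: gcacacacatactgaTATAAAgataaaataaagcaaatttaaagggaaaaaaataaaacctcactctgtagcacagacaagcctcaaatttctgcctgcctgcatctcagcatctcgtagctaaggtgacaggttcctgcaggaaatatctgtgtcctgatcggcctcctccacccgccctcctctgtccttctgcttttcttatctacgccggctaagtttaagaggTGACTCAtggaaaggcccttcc
C1qb and C1qc each held 1 match to the PU.1 core, 30 bases before the start in C1qb and 193 bases before it in C1qc. The C1qc window lies before the start used in the promoter table, and its last 22 bases fall inside the span that RefSeq lists for the gene. C3ar1 held 1 AP-1 match, 22 bases before the start, and 1 TATA box match at 235 bases. None of these 3 windows held the interferon-stimulated letters. Over 32851 promoter windows of the same length, 23.3% held the PU.1 core, 6.75% the AP-1 letters, 12.4% the TATA box letters and 2.98% the interferon-stimulated letters. These letter matches are descriptions and not measured binding sites.

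Values are given on the log2 scale of the deposited table, on which every array had a median of -0.628 over all probe sets and values ran from -5.88 to 8.31. The log base of the table is not given in the sources used here, so folds assume base 2. A difference of 1 is then a doubling, a value below the array median is called dim, and levels of different probe sets are not compared with each other. Correlations between the 2 arrays of a group lay between 0.915 and 0.941, and those between arrays of different groups between 0.891 and 0.931. The labelled tissue was checked against its markers: none of 9 alveolar type 2 markers and none of 10 markers of other lung cells was dim on average in any group. The 3′ minus 5′ difference of the beta-actin control probe sets, a sign of RNA length, was 2.02 ± 0.023 (SD, n = 2) in PF68 and 1.34 ± 0.033 in SWCNT on day 1, and 3.27 ± 0.029 and 2.97 ± 0.036 on day 7. It differed between the days more than between the treatments, and its part in the results below was not tested. These are bulk samples, in which fewer cells of a type and less RNA per cell cannot be told apart.

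On day 1, no member differed between SWCNT and PF68 at an adjusted p of 0.05. The 7 differences lay between -0.27 for C1qb and 0.18 for C1qa, with a median of 0.09 beside -0.02 over all 13854 genes, and the positive signs of C1qa, C1qc, Serping1 and C5ar1 turned when arrays were scaled to the hybridization spikes. With limma and Benjamini-Hochberg adjustment over all genes, 0 of 7 members passed, beside 2.17% of all genes. At an unadjusted p under 0.05 there were 0 members, beside 18.6% of all genes. On day 7 all 7 members had a higher mean in SWCNT on their brightest probe sets, by 0.06 for C1qc to 1.63 for C3ar1. The median was 0.33 beside 0.02 over all genes, and 7228 of the 13854 genes had a positive difference. The second C5ar1 probe set gave -1.27, and C1qc turned to -0.047 with 1 array left out. None of the 7 passed the adjusted threshold in limma, beside 2.18% of all genes. An unadjusted p under 0.05 was found for 3 (C3ar1, C1qa and Serping1), beside 23.1% of all genes. Across the days, the clearest differences were falls of C1qa and Serping1 from day 1 to day 7 in both treatments and a rise of C3ar1 in SWCNT.

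**Figure D1:**
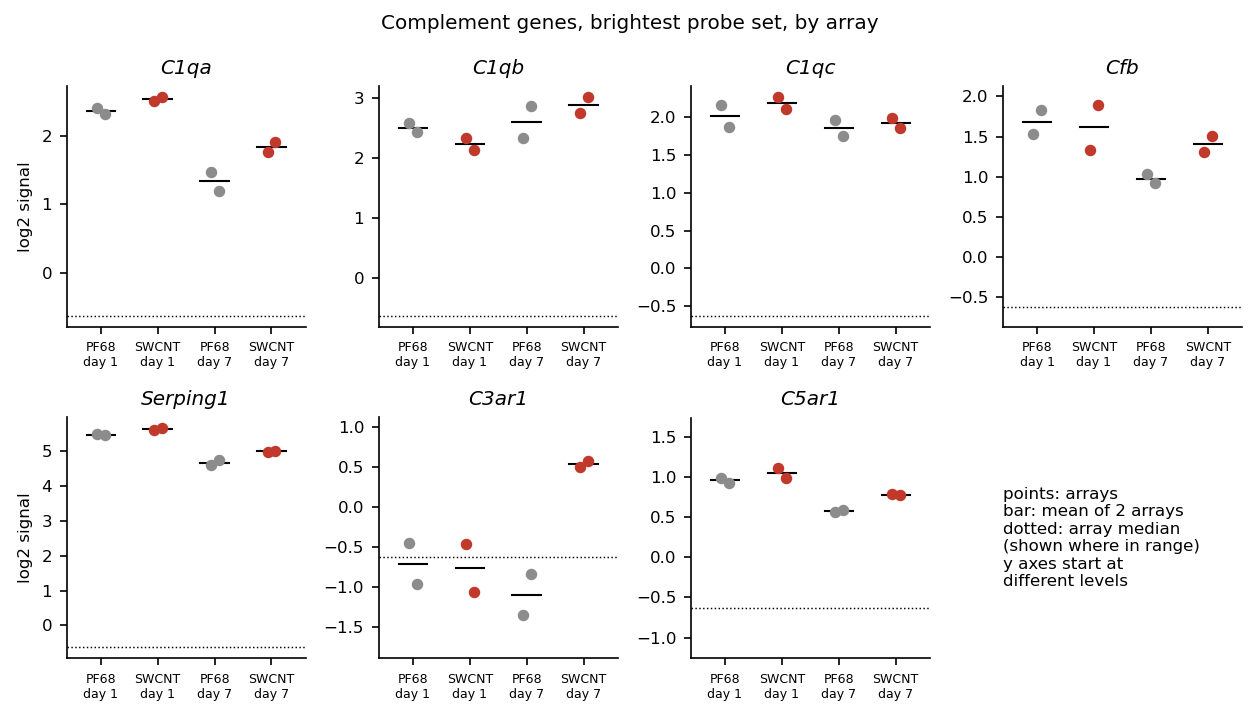
Level of each of the 7 measured members on the 8 arrays (vertical axes: log2 value, starting at a different level in each panel), with points for arrays (grey PF68, red SWCNT), bars for the mean of 2 arrays and a dotted line at the array median of -0.628. Serping1 and C1qa sit lower on day 7 than on day 1 in both treatments, and C3ar1 is above the median on both SWCNT day 7 arrays, at 0.50 and 0.58.

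Among the classical pathway components, C1qa on day 1 read 2.41 and 2.32 in PF68 and 2.51 and 2.57 in SWCNT. On day 7 it read 1.48 and 1.20 in PF68 and 1.77 and 1.92 in SWCNT. The groups ranked SWCNT day 1, PF68 day 1, SWCNT day 7 and PF68 day 7, and no 2 of the 4 groups overlapped. The day 1 neighbours differed by 0.18 ± 0.14 (difference ± SE), with a 95% interval of -0.16 to 0.52 and a limma adjusted p of 0.561. On day 7 the difference between SWCNT and PF68 was 0.50 ± 0.14 (0.17 to 0.84), with an adjusted p of 0.108, so that it did not pass. From day 1 to day 7, C1qa fell by 1.03 ± 0.14 in PF68 (2.04-fold, adjusted p 0.0109) and by 0.70 ± 0.14 in SWCNT (1.63-fold, adjusted p 0.0255) in the limma fit. With 1 array of PF68 on day 1 left out, the PF68 call was lost. The SWCNT call was lost without any 1 array of PF68 day 1, SWCNT day 1 or SWCNT day 7. Over all such refits the changes ran from -1.17 to -0.88 in PF68 and from -0.77 to -0.63 in SWCNT. Each leaves a group with 1 array, and most called fewer of all genes. Calls lost in this way, here and below, are therefore not particular to these genes.

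C1qb was measured by 3 probe sets that did not give 1 pattern. The brightest, whose suffix _x_at marks probes that can bind related transcripts, read 2.57 and 2.43 in PF68 and 2.33 and 2.13 in SWCNT on day 1. Its day 7 values were 2.33 and 2.86 in PF68 and 2.74 and 3.01 in SWCNT. The 2 PF68 arrays of day 7 lay 0.54 apart and overlapped every other group.
The dimmest of the 3, which has no such suffix, read 1.67 and 1.80 in PF68 and 1.63 and 1.79 in SWCNT on day 1, then 0.59 and 0.96 in PF68 and 1.69 and 1.75 in SWCNT on day 7. In this set only PF68 on day 7 stood apart, 0.96 below PF68 on day 1, with a limma adjusted p of 0.0203 when this set stood for the gene.
No such fall was seen in the brightest probe set, where the PF68 change between days was 0.09 ± 0.21 (adjusted p 0.796). SWCNT exceeded PF68 on day 7 on the means of all 3 C1qb probe sets, by 0.28 ± 0.21 (adjusted p 0.483), 0.22 and 0.95. When the dimmest set stood for the gene, its limma adjusted p for that difference was 0.0575. With 1 array left out at a time, the C1qb difference of the brightest set on day 7 ran from 0.011 to 0.55.

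C1qc read 2.16 and 1.86 in PF68 and 2.26 and 2.10 in SWCNT on day 1. Its values on day 7 were 1.97 and 1.75 in PF68 and 1.99 and 1.85 in SWCNT. The 4 group means lay between 1.86 and 2.18 and neighbours overlapped, so their order is within the spread. Its SWCNT minus PF68 differences were 0.17 ± 0.16 on day 1 (-0.21 to 0.56) and 0.06 ± 0.16 on day 7 (-0.33 to 0.45). Over the 8 arrays, which share their normalization, the level of C1qa correlated with that of C1qc at Pearson's r = 0.723 and with that of C1qb at -0.554. The sign for C1qb turned with the probe set, since the other _x_at set correlated with C1qa at -0.325 and the set without a suffix at 0.767. Whether the 3 chains of C1q followed 1 course therefore depended on the C1qb probe set.

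**Figure D2:**
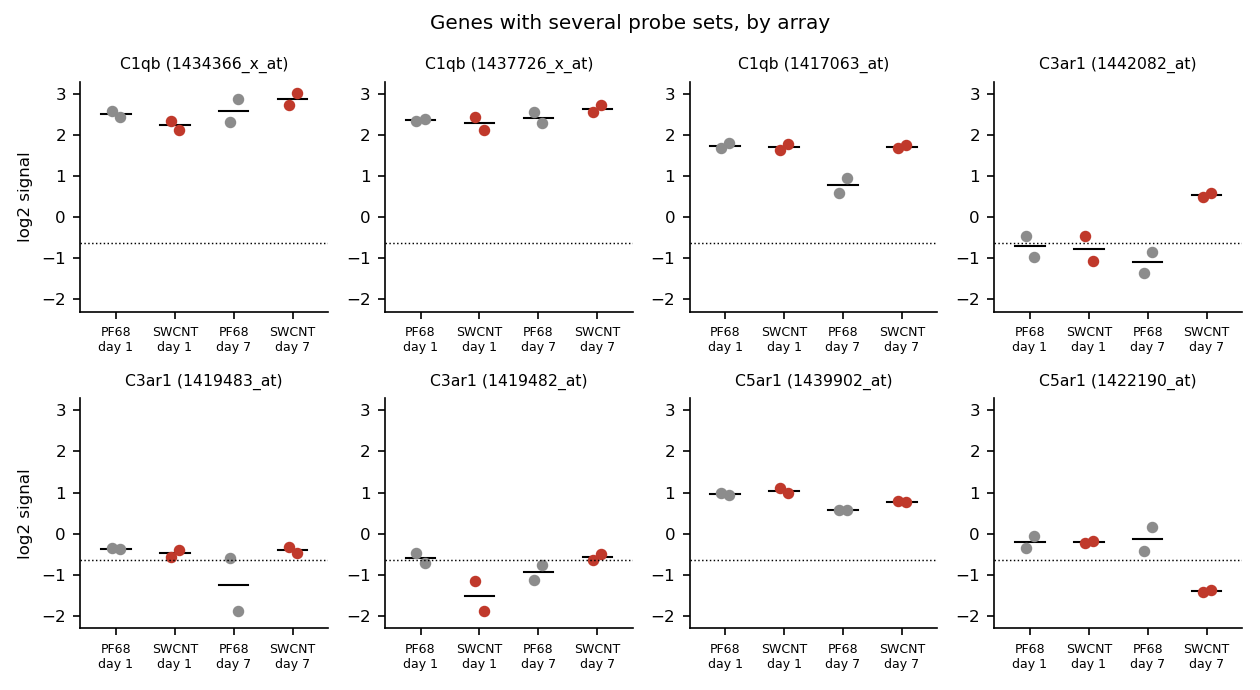
Log2 value on the 8 arrays of each kept probe set of the members measured by more than 1, with grey points for PF68 arrays, red points for SWCNT arrays, short bars for group means and a dotted line at the array median. The C1qb probe set that fell in PF68 from day 1 to day 7, the 3 C3ar1 probe sets, and the 2 C5ar1 probe sets with opposite differences on day 7 (0.21 and -1.27) can be seen side by side.

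Of the alternative pathway, Cfb read 1.53 and 1.83 in PF68 and 1.34 and 1.89 in SWCNT on day 1, where the SWCNT arrays lay outside both PF68 arrays. On day 7 it read 1.03 and 0.93 in PF68 and 1.31 and 1.51 in SWCNT, without overlap. The difference was -0.07 ± 0.22 on day 1 (-0.60 to 0.47, adjusted p 0.908) and 0.43 ± 0.22 on day 7 (-0.11 to 0.97, adjusted p 0.301) in limma. PF68 on day 7 was the lowest of the 4 groups, 0.70 ± 0.22 below PF68 on day 1 with an adjusted p of 0.0788, and SWCNT on day 1 overlapped both PF68 on day 1 and SWCNT on day 7. In SWCNT the change between days was -0.21 ± 0.22 (adjusted p 0.562).

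The regulator Serping1 read 5.47 and 5.45 in PF68 and 5.59 and 5.65 in SWCNT on day 1. On day 7 it read 4.59 and 4.73 in PF68 and 4.98 and 5.00 in SWCNT. The groups took the same order as for C1qa and none overlapped. SWCNT exceeded PF68 by 0.16 ± 0.10 on day 1 (-0.10 to 0.41, adjusted p 0.498) and by 0.33 ± 0.10 on day 7 (0.07 to 0.59, adjusted p 0.141), neither of which passed in limma. The fall from day 1 to day 7 passed in both treatments, at 0.80 ± 0.10 in PF68 (1.75-fold, adjusted p 0.0108) and 0.63 ± 0.10 in SWCNT (1.55-fold, adjusted p 0.0166). The PF68 call on Serping1 was lost without either PF68 array of day 1 (adjusted p 0.0679 and 0.0722), and the SWCNT call without any 1 of the 4 SWCNT arrays (adjusted p 0.0717 to 0.0918).

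The C3a receptor C3ar1 had the largest SWCNT minus PF68 difference of the members. Its brightest probe set read -0.45 and -0.96 in PF68 and -0.47 and -1.06 in SWCNT on day 1. On day 7 it read -1.35 and -0.84 in PF68 and 0.50 and 0.58 in SWCNT. Only the 2 SWCNT arrays of day 7 stood apart, the other 3 groups overlapped, and 4 of the 8 arrays were dim. On day 1 the treatments differed by -0.06 ± 0.29 (-0.77 to 0.66, adjusted p 0.944). On day 7 SWCNT was higher by 1.63 ± 0.29 (3.10-fold on this scale, 0.91 to 2.35), with a limma adjusted p of 0.0534, just short of the threshold. The rise from day 1 to day 7 in SWCNT, 1.30 ± 0.29 (2.46-fold), passed with an adjusted p of 0.0360, and the change in PF68 was -0.39 ± 0.29 (adjusted p 0.398). The day 7 effect exceeded that of day 1 by 1.69 ± 0.41, with an adjusted p of 0.0986 for this difference of effects. The rise in SWCNT lost its call without any 1 array of PF68 day 1, SWCNT day 1 or SWCNT day 7 (adjusted p 0.0544 to 0.140, difference 1.00 to 1.60).

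The other C3ar1 probe sets had lower means over the 8 arrays, -0.62 and -0.90 beside -0.51, a mean that includes the 2 SWCNT arrays of day 7. They were dim on 1 and 6 of the 8 arrays, beside 4 for the brightest. On day 1 the first of them read -0.34 and -0.38 in PF68 and -0.57 and -0.38 in SWCNT, not below the brightest set in PF68. One read -0.59 and -1.88 in PF68 and -0.32 and -0.47 in SWCNT on day 7, a mean difference of 0.84, and the other -1.12 and -0.75 in PF68 and -0.64 and -0.50 in SWCNT, a difference of 0.37. Both gave SWCNT above PF68 without overlap on day 7, as did the brightest. On day 1 they gave -0.11 and -0.92. From day 1 to day 7 in SWCNT they changed by 0.08 and 0.94, so the size of the C3ar1 rise depended on the probe set. With the mean of the 3 probe sets, the day 7 difference was 0.95 with a limma adjusted p of 0.0803, and with values under the array median raised to it, 1.17 with an adjusted p of 0.0098. Raising gives both PF68 arrays of day 7 the same value, so this last p leaves out their spread.

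The C5a receptor C5ar1 read 0.99 and 0.93 in PF68 and 1.11 and 0.99 in SWCNT on day 1. By day 7 the readings were 0.56 and 0.58 in PF68 and 0.79 and 0.77 in SWCNT. The order was that of C1qa and Serping1, and the groups did not overlap, although on day 1 the higher PF68 and the lower SWCNT array both read 0.99. SWCNT exceeded PF68 by 0.09 ± 0.10 on day 1 (-0.17 to 0.35, adjusted p 0.707) and by 0.21 ± 0.10 on day 7 (-0.05 to 0.46, adjusted p 0.301) in limma. From day 1 to day 7 it changed by -0.38 ± 0.10 in PF68 (adjusted p 0.0561) and by -0.27 ± 0.10 in SWCNT (adjusted p 0.137). The second, dimmer C5ar1 probe set read -0.42 and 0.16 in PF68 and -1.42 and -1.37 in SWCNT on day 7, a difference of -1.27 in the opposite direction. The direction of C5ar1 on day 7 therefore rests on the choice of probe set.

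**Figure D3:**
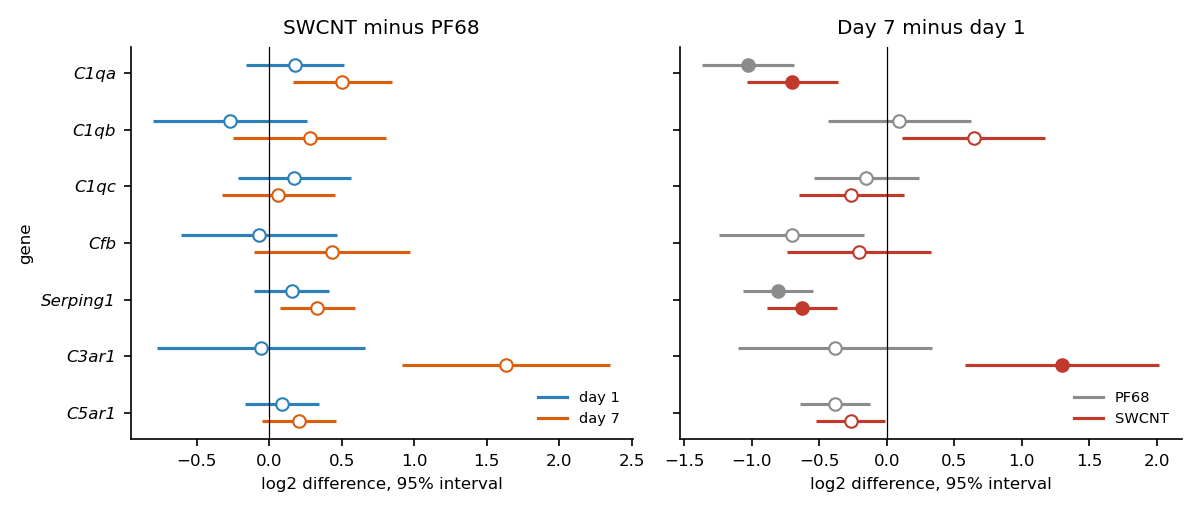
Differences of the 7 members (log2 scale, horizontal axis) for SWCNT minus PF68 on each day and for day 7 minus day 1 in each treatment, with 95% intervals from limma and filled points at an adjusted p of at most 0.05. The filled points are C1qa and Serping1, lower on day 7 in both treatments, and C3ar1, higher on day 7 in SWCNT.

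The counts are read against all genes. Of these, 129 were called higher and 171 lower in SWCNT on day 1, and 194 and 108 on day 7. Scaled to the hybridization spikes the splits were 107 and 723 on day 1 and 5946 and 80 on day 7. From day 1 to day 7 they were 1228 higher and 1227 lower in PF68 and 1329 and 928 in SWCNT, against 174 and 5831 and 2292 and 628 with the spikes. For the difference of effects they were 196 and 128 against 6195 and 109. The falls of C1qa and Serping1 and the rise of C3ar1 kept their direction under that scaling. Every change between days moved by -0.60 in PF68 and by 0.16 in SWCNT. The direction of the PF68 falls and of the C3ar1 rise was thus fixed in advance. The SWCNT falls, 0.70 for C1qa and 0.63 for Serping1, were larger than their shift. In PF68, 2 of 7 members were lower on day 7 than on day 1, beside 17.7% of all genes called in either direction and 8.86% called lower. In SWCNT, 2 of 7 were lower and 1 higher, beside 16.3% in either direction, 6.7% lower and 9.59% higher. On day 7 the arrays of SWCNT lay wholly above those of PF68 for 5 of 7 members (C1qa, Cfb, Serping1, C3ar1 and C5ar1), beside 28.2% of all genes. On day 1 this held for 3 of 7 (C1qa, Serping1 and C5ar1), beside 24.6%, and C1qb lay wholly below, beside 28.6%. No member's SWCNT effect differed between the days at the adjusted threshold in limma, beside 2.34% of all genes. At an unadjusted p under 0.05, 1 of 7 (C3ar1) did, beside 20.8% of all genes. Apart from C3ar1, these differences of effects ran from -0.11 for C1qc to 0.55 for C1qb, with adjusted p between 0.366 and 0.813.

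Other signals moved with these comparisons. Summarised over 28 measured interferon-induced genes, the mean level was 3.20 to 3.21 on the PF68 day 1 arrays, 1.12 to 1.14 on SWCNT day 1, 1.40 to 1.46 on PF68 day 7 and 1.34 to 1.37 on SWCNT day 7. In limma 22 of the 28 were lower in SWCNT on day 1, and 21 were lower on day 7 than on day 1 in PF68. The SWCNT minus PF68 differences of C1qa and Serping1 on day 1 were 0.18 and 0.16 (limma adjusted p 0.561 and 0.498), and both signs turned under the spike scaling. Of 9 skeletal muscle genes, 8 were higher in SWCNT on day 1, with a median difference of 4.56, so that the signal of muscle genes differed between those groups, and of 5 adipose genes 3 were higher, with a median difference of 1.64. Between the days in SWCNT, C1qa and Serping1 fell and C3ar1 rose, and 6.7% of all genes were called lower and 9.59% higher. There, 9 of 9 muscle genes were lower (median -4.40), as were 5 of 5 adipose genes (median -1.41). So were 4 of 11 fibroblast and mesothelium genes. Of 7 monocyte markers 4 were higher and 1 lower, and of 16 interstitial and recruited macrophage markers 6 were higher and 0 lower. Of 10 alveolar macrophage markers 6 were higher and 1 lower, and of 13 neutrophil markers 1 was higher and 9 were lower. In PF68 over the same interval, C1qa and Serping1 also fell, and 8.86% of all genes were called lower and 8.86% higher. Of the 11 fibroblast and mesothelium genes 6 were lower and 1 higher, and 2 of 5 adipose genes were higher. The 1 of 9 muscle genes that was lower is near the share of all genes. Of 7 monocyte markers 1 was higher and 2 were lower, and of 16 interstitial and recruited macrophage markers 0 were higher and 6 lower. Of 10 alveolar macrophage markers 2 were higher and 2 lower, and of 13 neutrophil markers 1 was higher and 2 were lower. The part of these signals in the members' values was not tested.

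Markers of the cells that make C1q and carry the receptors were also compared. The mean of 16 interstitial and recruited macrophage markers ran from 2.13 to 2.20 on the PF68 day 7 arrays and from 2.85 to 2.89 on SWCNT day 7, against 2.63 to 2.67 and 2.27 to 2.40 for PF68 and SWCNT on day 1. On day 7, 1.4% of all genes were called higher in SWCNT and 0.78% lower, and in limma 3 of the 16 were higher, among them Gpnmb, a macrophage glycoprotein, by 2.23 ± 0.12 (adjusted p 0.00725). Of 10 alveolar macrophage markers, 1 was higher on day 7, with a mean level of 3.49 to 3.56 in PF68 and 3.88 to 3.91 in SWCNT. Of 7 monocyte markers, 1 was higher and 0 lower, the median difference was -0.15, and the mean level ran from 2.14 to 2.37 in PF68 and from 2.09 to 2.39 in SWCNT, so that the groups overlapped. Of 13 neutrophil markers, 2 were higher and 6 lower, with a mean level of 2.61 to 2.65 in PF68 and 1.93 to 2.03 in SWCNT. C3ar1 was thus high in the group in which the macrophage lists were high, the neutrophil list was low and the monocyte list overlapped PF68, and the part of these lists in its difference was not tested. Of 6 measured liver genes, 1 was lower in SWCNT on day 7, and 2 of the 6 were dim on average in each day 7 group.

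The rest of the pathway was taken from a list of 51 further complement genes, of which 32 were measured. On day 1, 1 was higher and 2 were lower in SWCNT, beside 0.931% and 1.23% of all genes, 29 did not pass, and the median difference was 0.07. On day 7, 0 of the 32 passed in limma, and the median was -0.04. An unadjusted p under 0.05 was found for 5 (15.6%), beside 23.1% of all genes. The effect differed between days for 3, all more positive on day 7, beside 1.41% of all genes. From day 1 to day 7, 3 were higher and 2 lower in PF68 (15.6% of the 32, beside 17.7% of all genes), and 4 were higher and 3 lower in SWCNT (21.9%, beside 16.3%), shares near those of all genes.

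Of these, Hc encodes C5, the source of the C5a that C5ar1 binds. It read 4.67 and 4.64 in PF68 and 3.31 and 3.43 in SWCNT on day 1, and 4.48 to 4.59 on the 4 arrays of day 7. It was lower in SWCNT on day 1 by 1.29 ± 0.11 (2.44-fold, limma adjusted p 0.00804), and only the SWCNT day 1 arrays stood apart. Without any 1 of the day 1 arrays the Hc call was lost (adjusted p 0.0688 to 0.0836). C2, the classical pathway protease related to Cfb, followed the same course. It read 2.12 and 1.86 in PF68 and 0.72 and 0.84 in SWCNT on day 1, and 1.94 to 2.21 on day 7. The day 1 difference was -1.21 ± 0.14 (2.31-fold, adjusted p 0.0189), but its other 2 probe sets gave -0.13 and -0.56. With the C2 probe set that lacks a shared-transcript suffix (-0.13) or with the mean of all C2 probe sets (-0.63), the call was lost, at adjusted p of 0.781 and 0.101. It was also lost without any 1 of the day 1 or SWCNT day 7 arrays (adjusted p 0.0548 to 0.134).

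Fcna, the lectin pathway recognition protein ficolin A, read -0.26 and -0.25 in PF68 and 0.88 and 0.80 in SWCNT on day 1. It was higher in SWCNT by 1.09 ± 0.16 (2.14-fold, limma adjusted p 0.0372), and SWCNT on day 1 was its highest group. The Fcna call was lost without any 1 of the day 1 or PF68 day 7 arrays (adjusted p 0.0692 to 0.214). Cfhr2, a factor H-related protein, came next in size on day 1 at 0.92 ± 0.35 and did not pass (adjusted p 0.242). Its day 1 means were dim in both treatments, -1.64 in PF68 and -0.72 in SWCNT. On day 7 the 4 pathway genes with the largest differences did not pass in limma. These were C9, which forms the membrane pore (-1.38 ± 0.23, adjusted p 0.0501), Cpn1, a chain of the carboxypeptidase that trims C3a and C5a (0.69 ± 0.30, adjusted p 0.247), the lectin pathway protease Masp1 (0.68 ± 1.0, adjusted p 0.726) and Itgax (0.65 ± 0.12, adjusted p 0.0604). The C9 mean on day 7 was 0.13 in PF68 and dim in SWCNT, at -1.25. That of Cpn1 was dim in PF68, at -1.06, and -0.37 in SWCNT. Itgax, the CD11c chain of a complement receptor, also belongs to the alveolar macrophage list. It read 2.55 and 2.65 in PF68 and 2.03 and 1.999 in SWCNT on day 1, and 2.90 and 2.68 in PF68 and 3.38 and 3.50 in SWCNT on day 7. From day 1 to day 7 in SWCNT, Itgax rose by 1.43 (2.69-fold, adjusted p 0.00622), alongside C3ar1, a call lost without the second SWCNT array of day 7 (adjusted p 0.0543).

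Between the days, the terminal component C6 rose in both treatments, by 0.88 in PF68 (limma adjusted p 0.0144) and 1.16 in SWCNT (adjusted p 0.00835). Cd93, a surface receptor once taken for a C1q receptor, fell in both on its brightest probe set, by 0.46 in PF68 (adjusted p 0.0492) and 0.60 in SWCNT (adjusted p 0.0260). Its other probe sets ran from -0.39 to 0.42 in PF68 and from -0.55 to 1.05 in SWCNT, so the direction depended on the probe set. C1s1, the protease that Serping1 inhibits, fell by 0.61 in PF68 (adjusted p 0.0215), while the C1q-binding proteins Calr and C1qbp rose by 0.48 and 0.71 (adjusted p 0.0327 and 0.0174). The other C1qbp probe set gave -0.16. In SWCNT, Hc rose by 1.17 and C2 by 1.40, Fcna fell by 1.00, and Clu, an inhibitor of the terminal complex, fell by 0.53 (adjusted p 0.0064, 0.00677, 0.0144 and 0.0417). The other C2 probe sets rose by 0.20 and 0.69. Each of these calls between days was lost without 1 or more arrays. For C2 and Hc in SWCNT this was the second SWCNT array of day 7 (adjusted p 0.0552), for C6 in SWCNT any 1 of the 4 SWCNT arrays (0.0504 to 0.0587), for Fcna those of day 1 and the second of day 7 (0.0647 to 0.0749), and for Cd93 in SWCNT every array outside PF68 day 7 (0.0507 to 0.128). In PF68, C1s1, C6 and C1qbp lost theirs without either PF68 array of day 1 or the second of day 7 (0.0520 to 0.105), and Cd93 and Calr, like Clu in SWCNT, without any 1 of the 8 arrays (0.0568 to 0.204). The falls of C1qa and Serping1 therefore stood beside rises of other complement genes in the same lungs.

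**Figure D4:**
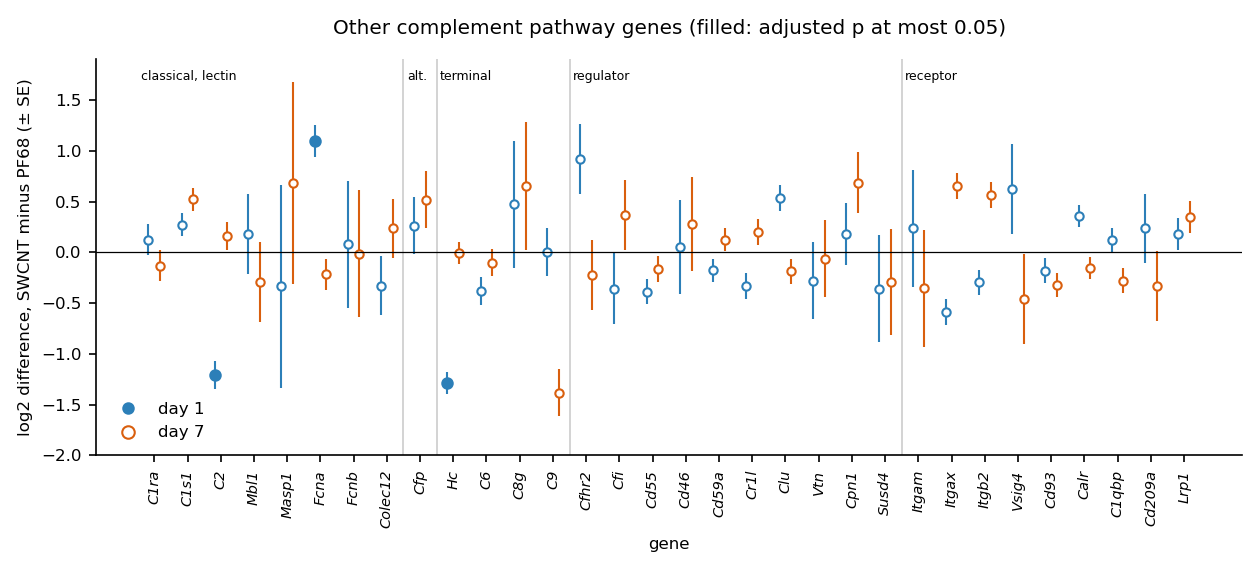
SWCNT minus PF68 differences (log2 scale) of the 32 measured complement genes outside the 9 members, grouped by role, on day 1 (blue) and day 7 (orange), with bars for 1 SE and filled points at an adjusted p of at most 0.05. Filled points are the day 1 values of Hc and C2, at -1.29 and -1.21, and of Fcna, at 1.09, and none of the day 7 values is filled.

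Over the 8 arrays, Serping1 correlated with C1qa at Pearson's r = 0.967 and with C5ar1 at 0.97, and C1qa with C5ar1 at 0.959. C3ar1 correlated with C1qa at -0.015 and with C1qb at 0.704. C1qa, Serping1, C5ar1 and C1qc ranked the 4 group means in 1 order, although those of C1qc overlapped, and C1qb, Cfb and C3ar1 each had another order. These correlations use the brightest probe set of each gene, and the other C3ar1 probe sets correlated with C1qa at 0.681 and -0.325. Of all tested genes, those with the closest course to Serping1 were AA986860, Rac1, Sulf2, Sqstm1 and Dynlrb1 (r between 0.992 and 0.994), and to C3ar1 they were Acsbg3, Pik3r5, Tmem201, Thsd7b and Uqcrc1 (0.951 to 0.98). For the mean of the 3 C1q chains they were Lrrc58, Serp1, Cpt1a, Psmb2 and Cops5 (0.959 to 0.967). These values are descriptions over 8 arrays in 4 groups.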

How the data were processed

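Expression values were read from the series' value table. The authors' deposited values are taken as log2 signals, 1 per probe set and array. The submitters' processing notes name RMA, without version or settings, and the sorted values were identical on all 8 arrays. Of 45101 probe sets, 64 controls and 8 with a missing value were left out. Names came from the platform annotation, in which 34939 probe sets had 1 symbol, 931 several and 9159 were unlisted. Probe sets that reached the median of the array on 2 or more of the 8 arrays were kept (27368, of which 23308 with 1 symbol), and each of 13854 genes was represented by the probe set with the highest mean, 5810 genes having several.

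Group means of all 8 arrays were fitted with limma 3.58.1 in R 4.3.3 (4 residual and 1.81 prior degrees of freedom), with Benjamini-Hochberg adjustment over all 13854 genes and a threshold of 0.05. The fit was tested on simulated data. Figures were drawn with matplotlib 3.10.9. The number of arrays limits the precision.

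The members and lists were chosen with earlier results of these data known. Text names all members, pathway genes called in any comparison, the 4 pathway genes with the largest difference of each day, up to 2 genes per marker list, and the 5 genes most correlated with C3ar1, Serping1 and the C1q mean (and C3, which has no value). Alternatives covered the filter, probe set choice, dim values, spike scaling, the variance model, the arrays fitted, array weights, a replicate block and leaving out each array. Same-numbered arrays did not deviate together (correlations from -0.012 to 0.029), so the numbers were not taken as pairs.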

Additional observations from a re-analysis of the deposited data

Results flagged for a closer look

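For 3 complement genes outside the 9 described, the SWCNT effect differed between the days in limma's test of that difference, over 2 arrays per group. C2 had an SWCNT effect that was 1.37 ± 0.20 higher on day 7 than on day 1 (adjusted p 0.0387), Hc one that was 1.29 ± 0.16 higher (adjusted p 0.0280), and Itgax one that was 1.24 ± 0.18 higher (adjusted p 0.0379). These 3 calls were lost whenever any 1 array was left out and with the replicate number as a block. Both settings also called fewer of all genes than the main fit. For C2 it was 0.38 with the probe set that lacks a shared-transcript suffix and 0.71 with the mean of its probe sets, and neither passed.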

How the results depend on the processing

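Of 1083 values recomputed under other settings, 849 kept their direction and side of the threshold, 38 newly passed, 173 no longer passed and 23 changed sign. Counts are of 7 members and 32 other pathway genes, except with no filter (7 and 43) and with the filter on all 8 arrays (6 and 19). With no filter, 1 member was called between days in SWCNT, beside 7.24% of all genes. Pathway genes called were 0 for the difference between days (0.275% of all genes) and 3 between days in PF68 (7.73%). With a filter on all 8 arrays, 1 member passed on day 7 (beside 12.0% of all genes) and 4 between days in PF68 (33.9%). C3ar1 was not tested there. Pathway genes were 5 on day 1 (7.1%), 3 on day 7 (12.0%), 6 for the difference (10.1%) and 11 between days in SWCNT (32.3%). Scaling to the hybridization spikes moved the median difference of all genes to -0.24 on day 1, 0.55 on day 7, -0.56 between days in PF68 and 0.25 in SWCNT. Members called were then 7 on day 7, 6 for the difference between days and 6 between days in PF68, beside 43.5%, 45.5% and 43.3% of all genes. Pathway genes were 12, 13 and 12 in these comparisons, and 5 on day 1 (5.99% of all genes). Signs turned under this scaling for C1qa (-0.046), C1qc (-0.050), Serping1 (-0.068) and C5ar1 (-0.13) on day 1, C1qc for the difference between days (0.65), and C1qb (-0.51) and Calr (-0.12) between days in PF68. With dim values raised to the median, 1 member passed on day 7 (5.51% of all genes) and 1 for the difference between days (5.34%). Pathway genes were 4 and 6 in these comparisons, and 8 between days in PF68 (21.6%). Raising removes the spread between dim arrays, so these counts are not like those of the main fit. With the mean of a gene's probe sets, 2 pathway genes passed between days in PF68, beside 10.5% of all genes. In this setting C5ar1 turned to -0.53 on day 7 and -0.58 for the difference between days. C1qb turned to -0.27 in PF68 and Cd93 to 0.11 in SWCNT. With probe sets lacking shared-transcript suffixes preferred, 3 pathway genes passed in PF68 (14.4% of all genes), and C1qb (-0.96) and C1qbp (-0.16) turned. With a variance trend and robust fit, 3 members passed on day 7 (11.7% of all genes). Pathway genes were 6 on day 1 (9.05%), 6 on day 7 and 7 for the difference (9.98%). Between days they were 8 in PF68 (25.8%) and 11 in SWCNT (24.6%). In fits of only the 4 arrays compared, 0 pathway genes passed on day 1, beside 0.411% of all genes. Between days, 0 members and 0 pathway genes passed in either treatment, beside 0 of all genes in PF68 and 0.0505% in SWCNT. These zeros are near the shares of all genes. With the replicate number as a block, 1, 0 and 3 pathway genes passed on day 1, for the difference and in PF68. Beside them stood 0.736%, 0.217% and 13.5% of all genes. C3ar1 lost its call in SWCNT in this limma fit (adjusted p 0.0616). Requiring also an absolute difference of at least 1 left 1 member and 0 pathway genes in PF68 and 1 member in SWCNT, beside 5.11% and 4.76% of all genes. Leaving out 1 array at a time left a group with 1 array. In most such refits fewer of all genes were called than in the main fit, so lost calls are not particular to the members. The calls rest on few arrays, for all genes as for the members. In these refits the change of C1qa in PF68 ran from -1.17 to -0.88, and the C3ar1 difference on day 7 from 1.38 to 1.89. With 1 array left out, values of either sign were found for C3ar1 (-0.35 to 0.24) and Cfb (-0.34 to 0.21) on day 1, C1qc (-0.047 to 0.17) and Masp1 (-0.93 to 2.29) on day 7, C1qc for the difference (-0.26 to 0.037), C1qb in PF68 (-0.18 to 0.36) and Cfb in SWCNT (-0.48 to 0.069). A group left with 1 array is assumed to vary like the others, and the causes of these shifts were not tested.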
